A study of Mus musculus with 8 samples.

Results

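This report describes 580 regions of the mouse genome that were open in WT luminal mammary tumor cells and closed in WT basal-like cells. They were also open in cells sorted as basal-like from Lats1-CKO cultures. They were chosen by the presence of ATAC-seq peaks in 6 of 8 libraries. A region had to have a peak in both WT luminal libraries (BM1 and BM5), in neither WT basal-like library (BM2 and BM6), and in both libraries of Lats1-CKO basal-like cells (BM4 and BM8). They are 580 of 183194 regions obtained by merging the peaks of all 8 libraries (0.317%), and 580 of the 2141 WT luminal regions (27.1%), those with peaks in BM1 and BM5 and none in BM2 or BM6. They are termed shared regions here. The presence of peaks in these 6 libraries is therefore a description of how the regions were chosen. Peaks in BM7 and BM3 (Lats1-CKO luminal), position and sequence were not part of the rule. BM7 and BM3 peaks did help to set the bounds of the merged regions, and without BM7 the rule gave 585 regions.

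The cells were lines derived from mammary tumors of FBV/N mice carrying the polyomavirus middle T (PyMT) oncogene, so that every group, the controls included, carried the oncogene. Lats1-CKO cells lack Lats1 in the epithelial compartment. The study also reported that Lats1-CKO cultures held, to varying extents, more cells that it defined as fibroblasts by LATS1 and CD44. Whether the sorted libraries held such cells was not tested. Luminal cells were sorted as EpCAM-high and CD49f-high, and basal-like cells, labelled basal, as EpCAM-low and CD49f-high. Sorted cells were grown briefly in culture before ATAC-seq, with 2 libraries in each of 4 groups. The promoter that drives the Cre, the age of the mice from which these lines came and the number of lines behind the libraries were not given in the sources used here, and nothing in the labels says whether replicates came from separate lines.

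ATAC-seq finds open chromatin by inserting sequencing adapters with a transposase where DNA is not packed into nucleosomes. LATS1 is a kinase of the Hippo pathway, which phosphorylates the coactivators YAP and TAZ and thereby keeps them out of the nucleus. Luminal cells line the ducts and alveoli of the mammary gland and basal cells surround them, and the enhancers of each are bound by partly different transcription factors. GRHL factors act at enhancers of epithelial cells. The E-box CAGGTG is bound by SNAI and ZEB factors, which repress epithelial genes, and by some activators. AP-1 (JUN and FOS dimers) and TEAD factors, the partners of YAP and TAZ, bind many enhancers of adherent cells. CTCF is a zinc-finger protein that anchors chromatin loops and domain boundaries in most cell types.

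Sequences of 8 shared regions are given to show what they hold. All are read 5′ to 3′ on the plus strand of GRCm38.p6 (mm10), which is the C57BL/6J genome and not that of the FBV/N cells. Capitals mark motif matches on either strand. In the first 4, the capitals include a match to the longer CTCF pattern, CCANNAGNNGGC, which reads GCCNNCTNNTGG on the other strand. The regions named for Ttll12 and Cdca2 rank among the 10 strongest, and those named for Atp8b2 and Gm5678 were added after their values were seen, as the next highest-ranking with this pattern. The first lies in an intron of Scube1, the second at a start site of the transcript AC093020.1, the third in Atp8b2 at a start site of one of its transcripts, and the fourth between genes. The Cdca2 region also holds a RUNX match (ACCACA, the reverse complement of TGTGGT) and the Atp8b2 region an ETS match (ACTTCC, the reverse complement of GGAAGT), and its CTCF capitals also hold the shorter CTCF core AGGGGGC.

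Ttll12 (chr15:83607549-83607738): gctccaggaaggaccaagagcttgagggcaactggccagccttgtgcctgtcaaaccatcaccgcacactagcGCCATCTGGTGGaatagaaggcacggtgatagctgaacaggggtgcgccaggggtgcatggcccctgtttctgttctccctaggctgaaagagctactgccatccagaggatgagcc
Cdca2 (chr14:67674785-67674914): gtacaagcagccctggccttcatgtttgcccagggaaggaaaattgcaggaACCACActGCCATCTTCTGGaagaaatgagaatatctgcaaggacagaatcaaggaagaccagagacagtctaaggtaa
Atp8b2 (chr3:89953529-89953719): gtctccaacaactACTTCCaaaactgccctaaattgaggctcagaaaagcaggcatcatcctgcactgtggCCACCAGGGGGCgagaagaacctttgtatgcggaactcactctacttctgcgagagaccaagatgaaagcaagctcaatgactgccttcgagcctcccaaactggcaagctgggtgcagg
Gm5678 (chr16:93626873-93627012): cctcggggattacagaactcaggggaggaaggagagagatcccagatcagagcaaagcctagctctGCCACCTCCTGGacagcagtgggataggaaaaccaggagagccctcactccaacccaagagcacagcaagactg

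The next pair are the highest-ranking regions with an AP-1 match (TGANTCA), each a TGACTCA. The Ercc6 region holds in addition, in order, overlapping RUNX and KLF matches, a GC box (GGGCGG), a STAT match (TTCNNNGAA) after the AP-1 match, and a GRHL match (ACCNGTT).

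Tnfsf18 (chr1:161487209-161487449): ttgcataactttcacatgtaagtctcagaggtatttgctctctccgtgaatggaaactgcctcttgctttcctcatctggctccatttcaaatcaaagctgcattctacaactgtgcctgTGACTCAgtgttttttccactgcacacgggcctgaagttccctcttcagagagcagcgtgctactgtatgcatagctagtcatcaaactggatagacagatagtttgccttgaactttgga
Ercc6 (chr14:32492649-32492932): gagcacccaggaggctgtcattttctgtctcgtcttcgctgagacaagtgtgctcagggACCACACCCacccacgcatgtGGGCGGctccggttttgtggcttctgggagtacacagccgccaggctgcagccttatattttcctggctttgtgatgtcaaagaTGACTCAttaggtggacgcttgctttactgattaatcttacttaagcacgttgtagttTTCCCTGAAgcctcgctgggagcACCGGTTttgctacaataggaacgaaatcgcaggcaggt

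The last pair show a promoter and a TEAD match. The Polr2a region holds a CCAAT box in each direction, the second of which joins an ETS match. The Psd3 region holds a TEAD match (CATTCC, the reverse complement of GGAATG) that overlaps a STAT match, and a CCAAT box.

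Polr2a (chr11:69758966-69759197): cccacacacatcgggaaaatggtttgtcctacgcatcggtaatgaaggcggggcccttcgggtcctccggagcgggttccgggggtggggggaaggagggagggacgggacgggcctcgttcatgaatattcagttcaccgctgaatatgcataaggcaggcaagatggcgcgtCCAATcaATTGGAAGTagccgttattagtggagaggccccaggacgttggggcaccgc
Psd3 (chr8:68010345-68010540): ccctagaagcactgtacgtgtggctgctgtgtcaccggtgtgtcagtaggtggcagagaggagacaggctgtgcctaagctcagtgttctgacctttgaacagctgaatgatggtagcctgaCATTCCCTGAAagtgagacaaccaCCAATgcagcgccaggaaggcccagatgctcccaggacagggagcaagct

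The lists of peaks give a score for each peak, taken to be that of the peak caller MACS2, and no read counts, so the depth of each library is unknown. The score was used as a percentile among the peaks of the same library, where 50 is the library's median peak. The libraries held between 51497 and 99022 peaks, except BM3, which held 14753. BM4 and BM8 (Lats1-CKO basal-like) had 86279 and 99022 peaks, more than BM2 and BM6 (WT basal-like) with 70446 and 51497, and the part of this difference in the choice of the shared regions was not tested. The promoter of Lats1 had a peak in every library but BM3, which checks nothing, since an open promoter does not report a deletion. Of the genes of the sorting markers, Itga6 (CD49f) had a promoter peak in all 8 libraries, whereas Epcam and the luminal cadherin gene Cdh1 had none in BM4 and BM8. Krt8 and Krt14 had one in all 8 libraries, Krt18, the other luminal keratin gene, in none of BM3, BM4 and BM8, Krt5 only in BM7, and Trp63, which encodes a defining factor of basal cells, in none. The pan-leukocyte gene Ptprc had none in any library. Of 30 luminal genes, 23 and 21 had a promoter peak in BM1 and BM5, 21 and 14 in BM2 and BM6, and 10 in each of BM4 and BM8. Of 25 basal or myoepithelial genes, 16 and 15 had one in BM4 and BM8, against 15 and 13 in BM2 and BM6 and 17 and 14 in BM1 and BM5, so that the groups overlapped. The highest number of these genes, 20, was in BM7, and BM3 had 10. Of 21 fibroblast or mesenchymal genes, 16 had one in each of BM4 and BM8, against 10 to 13 in the WT libraries. BM4 and BM8 thus had peaks at fewer luminal and at more fibroblast promoters than any WT library, and the part of this in the results was not tested.

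The shared regions were mostly below the median peak in the WT luminal libraries and in BM4, and about evenly above and below it in BM8. The median score percentile was 30.3 in BM1 (range 0.218 to 84.9) and 36.1 in BM5 (8.2 to 89.2), the WT luminal libraries. It was 42.5 in BM4 (2.45 to 97.1) and 51.8 in BM8 (1.83 to 98.4), from Lats1-CKO basal-like cells. Among these regions, 100 were above the library's median peak in BM1, 152 in BM5, 245 in BM4 and 300 in BM8. Peaks were thus nearer to the middle of the library in Lats1-CKO basal-like than in WT luminal libraries, and the groups overlapped. The order was the same in mixed regions, with peaks in 1 WT luminal library, 1 WT basal-like library, BM4 and BM8. Their medians were 36.9 in BM1 and 39.8 in BM5, against 50.3 in BM4 and 51.8 in BM8. In all regions with a peak in exactly 4 of the 6 libraries of the rule, they were 42.4 and 48.2, against 50.3 and 51.8. This order was therefore not particular to the shared regions. Only 14 shared regions (2.41%) were above the median in all 4 libraries, and in 178 (30.7%) the weakest of the 4 peaks was in the lowest 10% of its library. For comparison, the 886 WT luminal regions without a peak in BM4 or BM8 had medians of 25.3 in BM1 and 28.5 in BM5. With 2 libraries against 2, an exact two-sided permutation test cannot give less than p = 0.333, so no difference between groups was tested.

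**Figure D1:**
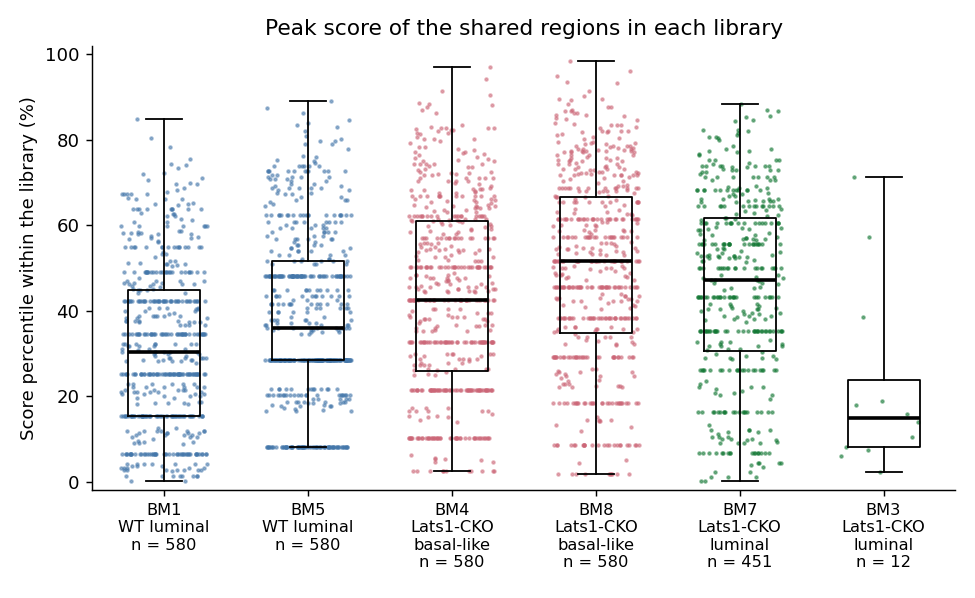
Score percentile of the shared regions within each library (y axis, %), by library (x axis). Points are regions with a peak, boxes span the quartiles with the median as a thick line, and whiskers reach the lowest and highest values; the medians of BM4 (42.5) and BM8 (51.8) lie above those of BM1 (30.3) and BM5 (36.1), and only 12 regions have a peak in BM3.

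The 10 strongest shared regions, ranked by the smallest of the 4 percentiles, had a smallest percentile between 53.2 and 66.4. The first lay 7206 bp upstream of Tnfsf18 (ENSMUSG00000066755), which encodes the ligand of the costimulatory receptor GITR, in intergenic DNA of chromosome 1. The peak ranked at 66.4 in BM1, 68.3 in BM5, 76.1 in BM4, 71.1 in BM8 and 50 in BM7. The second lay in an intron of Scube1, a secreted and membrane-bound EGF-domain protein, and 12392 bp upstream of the nearest protein-coding start site, that of Ttll12, a member of the tubulin tyrosine ligase family. The peak ranked at 62.9 in BM1, 77.8 in BM5, 88.7 in BM4, 78.3 in BM8 and 63.4 in BM7. Both were thus above the median peak in all 4 libraries of the rule, and neither had a peak in BM3.

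The third lay 20589 bp upstream of Ercc6, which encodes the transcription-coupled repair factor CSB, with 75.5 in BM1, 70.3 in BM5, 64.5 in BM4, 61.6 in BM8 and 43.3 in BM7. The fourth lay within 1 kb of the start site of the predicted gene Gm45609 on chromosome 2, 8002 bp upstream of Ahcy, the hydrolase of S-adenosylhomocysteine. It was stronger in BM4 (87.6) and BM8 (85.2) than in BM1 (63.8) and BM5 (59.4). Another region lay inside Psd3, which encodes an exchange factor for the GTPase ARF6. It was 35771 bp upstream of the nearest protein-coding start site and 5 bp from that of Gm22018. This region had the same order, with 82.5 in BM4 and 86.8 in BM8 against 54.9 in BM1 and 58.4 in BM5.

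A further 4 of the 10 lay near Fignl1, an ATPase of recombination repair (56.8 in BM1, 68.7 in BM5, 68.4 in BM4 and 62.8 in BM8), near Cbx8, a Polycomb chromobox gene, near Cdca2, which encodes a phosphatase-targeting protein of mitotic chromatin, and in Slc38a1, a glutamine transporter gene. The Cbx8 region lay 6535 bp downstream of the start site, in intergenic DNA, and was stronger in BM7 (87.0) than in BM1 (56.4), BM5 (67.3), BM4 (69.9) or BM8 (78.2). The Slc38a1 region, in an intron, was the weakest of the 9 described in BM7, with 16.3. These 9 regions all had a peak in BM7 and none had one in BM3.

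Of the shared regions, 58 lay within 1 kb of a protein-coding start site. The strongest of these lay over the start site of Tmem74 (chromosome 15), a gene of an autophagy-related membrane protein, with 52.6 in BM1, 62.4 in BM5, 65.2 in BM4 and 54.5 in BM8. The next lay over the start of Gpr107, a receptor-like Golgi protein (51.0, 51.6, 79.7 and 72.6 in the same order), 420 bp upstream of Atg9a, the lipid scramblase of autophagosome formation (57.9, 65.6, 50.3 and 63.9), and over the start of Parp12, an ADP-ribosyltransferase (59.8, 48.2, 65.9 and 66.7). The Gpr107 and Parp12 peaks were thus higher in BM4 and BM8 than in BM1 and BM5, while the Tmem74 and Atg9a values of the groups overlapped. The region 329 bp upstream of Polr2a, which encodes the largest subunit of RNA polymerase II, had 74.4 in BM1, 58.4 in BM5, 47.7 in BM4 and 53.4 in BM8. A further 4 lay at Lhpp (a histidine phosphatase), AI464131, Spg7 (a mitochondrial protease) and Efr3b (an anchor of a lipid kinase at the plasma membrane), with a smallest percentile between 41.6 and 46.2. Of the 9 described, 5 had a BM2 or BM6 peak within 500 bp of the region, at Atg9a, Parp12, Polr2a, Lhpp and Spg7.

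**Figure D2:**
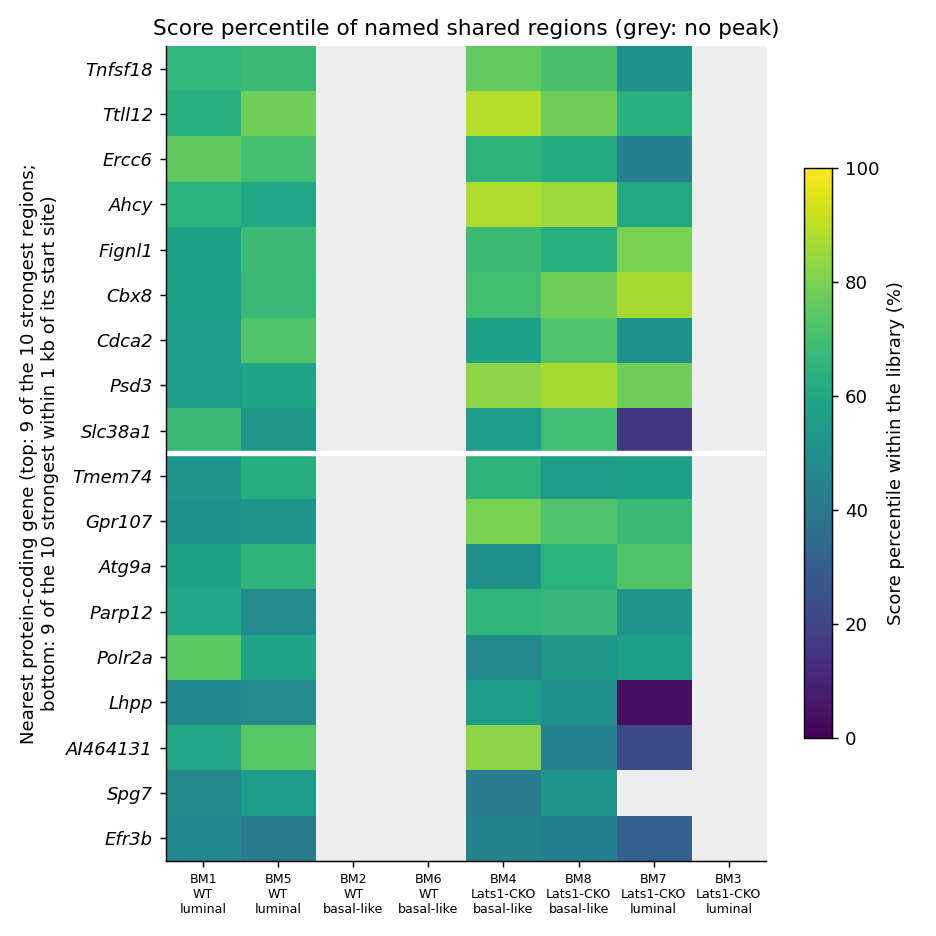
Score percentile (colour, %) of 9 of the 10 strongest shared regions (top) and 9 of the 10 strongest within 1 kb of a protein-coding start site (bottom), by library (x axis) and nearest protein-coding gene (y axis); grey marks the absence of a peak. BM2 and BM6 are grey by the choice of the regions, of the 18 regions Spg7 alone has no peak in BM7, and none has one in BM3.

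A peak of WT basal-like cells can lie close to a region counted as closed in them. In all, 55 shared regions (9.48%) had a peak of BM2 or BM6 within 500 bp, 49 of them in BM2 and 35 in BM6. The boundary of the choice can also be given by values. The 2 shared regions with the lowest percentile in any library of the rule had 0.218 in BM1. The one nearest to Rad18 had 28.5 in BM5, 63.1 in BM4 and 58.1 in BM8, and the one nearest to Tmem229b had 8.2, 32.7 and 35 in the same order. The lowest score in any list, 13, was that of 74 shared regions in at least 1 of the 4 libraries. Just outside, 2971 regions had the same 4 peaks and one in BM2 only, with a median percentile of 56.7 in BM2. A further 656 had one in BM6 only, with a median of 42.1 in BM6 and a lowest score of 13. The regions with a peak in only 1 of BM4 and BM8 numbered 207 for BM4 and 468 for BM8, with median percentiles there of 36.0 and 42.2. The number of shared regions therefore rested on single libraries. It was 3557 when BM2 was left out, 2241 without BM5, 1299 without BM1, 1237 without BM6 and 1049 without BM4. Limiting every library to its 50000 highest-scoring peaks gave 218, and to the peaks above its median score, 368. Both limits also dropped weak BM2 and BM6 peaks, so these counts can include regions that are not among the shared regions described here.

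Among Lats1-CKO luminal cells, BM7 had a peak in 451 of the 580 shared regions, 77.8% (95% exact binomial interval 74.2 to 81.1, which covers the sampling of regions only). This was above the share of all merged regions with a BM7 peak, 50%, and above that of the 886 WT luminal regions closed in BM4 and BM8, 37.4%. It was like that of other regions open in BM4 and BM8. Of 952 WT basal-like regions, with peaks in BM2 and BM6 and none in BM1 or BM5, that were open in both, 82.4% had one in BM7, and of 5405 mixed regions, with a peak in 1 WT luminal and 1 WT basal-like library and in BM4 and BM8, 79%. The share among all 12605 regions with a peak in exactly 4 of the 6 libraries of the rule was also 77.8%. It went up with that number, from 16.5% with a peak in 1 of the 6 libraries to 43.3% with 2, 62.3% with 3, 90.3% with 5 and 98.5% with 6. All merged regions also include 14466 with a peak in none of the 6. These have one in BM7 or BM3 by construction, and 95.8% had one in BM7. The presence of BM7 peaks in the shared regions was therefore that of regions called in as many libraries. With each library left out in turn, it was between 64.2% without BM1 and 85.9% without BM6.

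**Figure D3:**
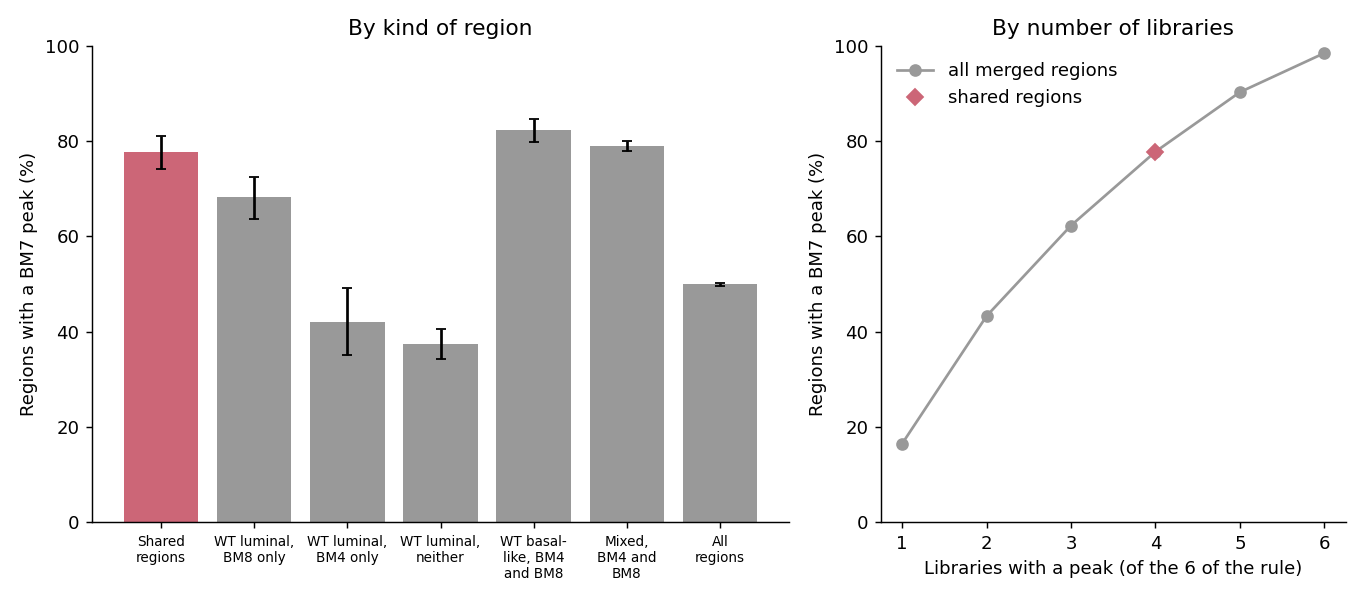
Share of regions with a BM7 peak (Lats1-CKO luminal; y axes, %). Left, by kind of region, with 95% exact binomial intervals that cover the sampling of regions only; right, for all merged regions by the number of the 6 libraries of the rule with a peak (grey), where the shared regions (77.8%, with 4 libraries) lie on the line.

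The median percentile of the BM7 peaks in shared regions was 47.2 (range 0.186 to 88.5), and 199 of the 451 were above the library's median peak. Across these 451 regions the BM7 percentile followed that of BM8 (Spearman's rho 0.445) more than that of BM1 (0.209), BM4 (0.167) or BM5 (0.0387), which is a description across regions that share their libraries. The BM7 share was 69.6% in the 194 shared regions with the lowest smallest percentile (0.218 to 10.3), 77.2% in the next 193 and 86.5% in the 193 with the highest (25.3 to 66.4). Stronger regions thus had a BM7 peak more often. By position, it was 77.0% within 1 kb of a start site, 74.0% in introns and 81.1% between genes.

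The 5 shared regions with the highest BM7 percentile lay in an intron of Slit1, which encodes an axon guidance ligand (88.5), near Cbx8 (87.0), near Fbxo5, which encodes an inhibitor of the anaphase-promoting complex (86.7), in an intron of Dpf3, a subunit gene of BAF chromatin remodelers (85.5), and in an intron of Setd3, an actin methyltransferase gene (85.4). The Slit1 region also had 93.4 in BM8 but 38.8 in BM1, 25 in BM4 and 8.2 in BM5. The Setd3 region had 96.2 in BM8, 66.9 in BM4, 71.9 in BM5 and 15.4 in BM1. Strong peaks in BM7 thus went with weak ones in at least 1 of the WT luminal libraries in both regions.

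The second library of Lats1-CKO luminal cells, BM3, showed a peak in 12 shared regions, 2.07% (interval 1.07 to 3.59), against 7.78% of all merged regions and 4.49% of those with a peak in 4 of the 6 libraries. The share was 1.69% in the closed WT luminal, 1.79% in the open WT basal-like and 3.24% in the open mixed regions, all within that interval. The low share was thus not particular to the shared regions. Of the 12 shared regions with a BM3 peak, 10 also had a peak in BM7. The study discarded 1 Lats1-CKO luminal replicate for quality, and the text does not name it. Among them was the region 115566 bp downstream of the start of Kdr, the VEGF receptor gene, with a percentile of 57.3 in BM3. It had 46.2 in BM1, 72.8 in BM5, 82.0 in BM4, 82.2 in BM8 and 64.5 in BM7, and therefore a peak in every library but BM2 and BM6. In 127 shared regions neither Lats1-CKO luminal library had a peak.

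Of the shared regions, 100 lay within 1 kb of a start site of any annotated transcript, 17.2% (interval 14.3 to 20.6). The same share was 19.0% in all merged regions, 17.2% in the closed WT luminal regions and 21.2% in the open WT basal-like regions. It was 20.3% in regions with a peak in 4 of the 6 libraries and 21.5% in the open mixed regions, the latter above the interval of the shared regions. Counting protein-coding start sites only, it was 10% against 13.8% of all merged regions. Within 5 kb of any start site lay 38.1%, against 37.4%. A further 29 regions overlapped an exon, 223 lay in introns and 228 between genes, which is 5.0%, 38.4% and 39.3%, against 3.78%, 40.7% and 36.6% of all merged regions. The promoter share was 16% in the 194 shared regions with the lowest smallest percentile, 15% in the next 193 and 20.7% in the 193 with the highest. Applying the rule only to peaks above each library's median gave 368 regions, of which 42.4% lay within 1 kb of a start site. Under this setting the share was 29% in the closed WT luminal regions and 25.6% in all. It was 27.2% in those with a peak in 4 of the 6 libraries. Only 14 of the shared regions described here were above the median in all 4 libraries, so most of the 368 were other regions. These could enter because weak BM2 and BM6 peaks were also dropped. With each library limited to 50000 peaks, which could also let other regions in, the promoter share was 20.6%, against 23.2% of all.

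Shared regions lay at intermediate distances from genes. The median distance to a protein-coding start site was 18059.5 bp, against 23688 bp for all merged regions and 22661 bp for the closed WT luminal regions. Of the shared regions, 33.3% lay between 5 and 20 kb from one, against 23.3% of all merged regions, and 12.4% lay more than 100 kb away, against 20.4%. The median was close in the open mixed regions (18570 bp) and shorter in the open WT basal-like regions (15859 bp). In regions with a peak in 4 of the 6 libraries it was 20333 bp. The short median was thus not particular to the shared regions. Beyond 100 kb lay 11.1% of the open WT basal-like regions, 14.6% of the open mixed regions and 17.4% of those with 4 of 6. Between 5 and 20 kb lay 27.7% of the open WT basal-like regions and 24.9% of those with 4 of 6. The differences in distance were not tested, since regions are not replicates.

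**Figure D4:**
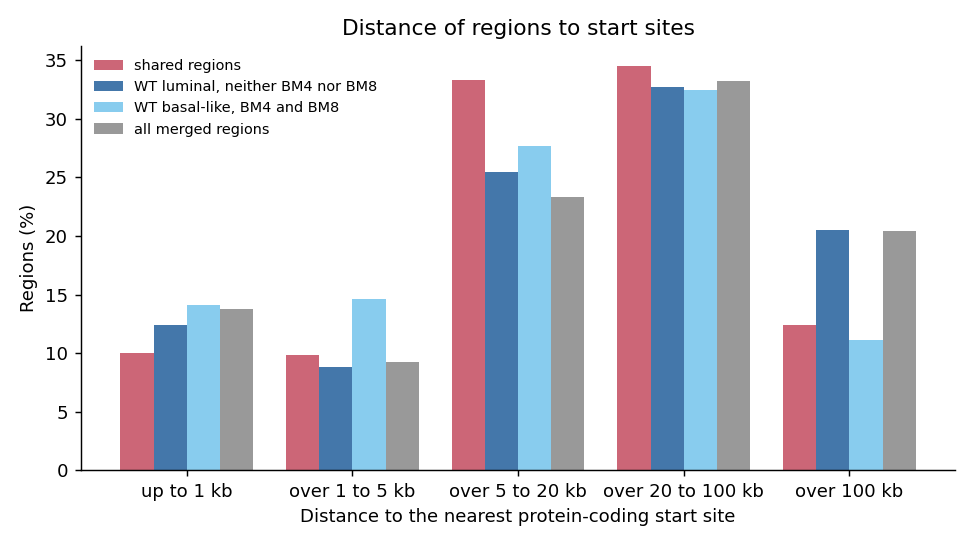
Share of regions (y axis, %) by distance from the nearest protein-coding start site (x axis), for the shared regions, the WT luminal regions closed in BM4 and BM8, the WT basal-like regions open in both, and all merged regions. The shared regions are most often between 5 and 100 kb away, with 33.3% from 5 to 20 kb and 34.5% from 20 to 100 kb.

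The shared regions were spread over many genes. They had 561 different nearest protein-coding genes, of which 19 had 2 shared regions and none had more. Of the genes with 2, those with the highest summed strength were Tmem74, Cdh9, Fam98a, Dcn and Bloc1s3. Besides the region over its start site, Tmem74 had one 152695 bp downstream with 97.1 in BM4 and 74.6 in BM8 but 54.9 in BM1 and 8.2 in BM5. Cdh9, a cadherin gene, had its regions 320982 and 1638698 bp away, the latter the longest distance of any shared region. Dcn, which encodes the matrix proteoglycan decorin of fibroblasts, had regions 134010 and 319087 bp upstream. The nearer one had 73.5 in BM1, 62.4 in BM5, 42.5 in BM4, 68.8 in BM8 and 64.5 in BM7 and held an E-box and the longer CTCF pattern. At Bloc1s3, a gene of lysosome-related organelles, one region lay over the start site and the other 6353 bp downstream, separated by 6170 bp. In all, 31 pairs of neighbouring shared regions were within 100 kb of each other and 3 within 10 kb.

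Of 218 genes in 11 lists (luminal, basal, fibroblast, immune and endothelial markers, genes of absent tissues, Hippo, estrogen receptor and NCOR, AP-1, ETS, RUNX and KLF factors, junctions, and ERBB receptors), 6 were the nearest protein-coding gene of a shared region within 100 kb, 2.75%. For all 21646 protein-coding genes the share was 2.31%. The lists of luminal, fibroblast, immune, endothelial, absent-tissue, Hippo and ERBB genes, of 8 to 32 genes each, had none. At a share of 2.31%, lists this short can easily have none. The 6 were Jun, Fosb and Klf6 of 28 AP-1, ETS, RUNX and KLF factors, Rara of 20 estrogen receptor and corepressor genes, Ocln of 26 junction genes and Dst of 25 basal genes.

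The region nearest to Klf6, a zinc-finger factor gene, lay 9974 bp downstream of its start site, with 37.3 in BM1, 57.5 in BM5, 45.5 in BM4, 84.6 in BM8 and 39.6 in BM7, and held a TEAD match. That of Ocln, which encodes the tight junction protein occludin, lay 29036 bp upstream, with 66.2 in BM1, 37.2 in BM5, 64.5 in BM4, 53.8 in BM8 and 46.9 in BM7, and held AP-1, E-box and STAT matches. That of Jun, an AP-1 subunit gene, lay 89115 bp upstream in an intron of Junos, with 22.8 in BM1, 28.5 in BM5, 73.6 in BM4, 11.9 in BM8 and 47.2 in BM7, and held AP-1 and E-box matches. BM4 and BM8 thus differed widely from each other at Jun and at Klf6. That of Fosb, another AP-1 gene, lay 11533 bp upstream, held an AP-1 match and had no BM7 peak (50.5, 34.7, 55.7 and 34.0 in BM1, BM5, BM4 and BM8). That of Rara, a retinoic acid receptor gene, lay in the gene, 1322 bp upstream of the nearest start site (32.3, 40.7, 77.6 and 41.5, and 1.23 in BM7). That of Dst, the plakin gene of hemidesmosomes, lay 339 bp downstream of a start site and had no BM7 peak (29.9, 42.5, 30.0 and 35.8), with a FOXA and an E-box match.

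In each library but BM3, taken singly, most of the nearest genes had a promoter peak. Of the 443 genes nearest to a shared region between 1 and 100 kb away, 74.7% and 64.8% had a peak within 1 kb of a start site in BM1 and BM5, 72.0% and 66.6% in BM2 and BM6, 71.8% and 73.4% in BM4 and BM8, 74.0% in BM7 and 45.1% in BM3. In BM2 and BM6, in which the shared regions had no peak, the promoters of these genes thus had one about as often as in the WT luminal libraries. Among genes nearest to any region with a peak in 4 of the 6 libraries, the values were between 59.9% (BM5) and 71.6% (BM7) without BM3, and among all protein-coding genes between 49.1% (BM5) and 57.7% (BM7).

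In sequence, the shared regions and the WT luminal regions closed in BM4 and BM8 held CTCF, E-box, GRHL and AP-1 matches at different shares. The longer CTCF pattern CCANNAGNNGGC, added after the sequences had been seen, was in the central 200 bp of 138 shared regions, 23.8% (interval 20.4 to 27.5), against 7.56% of the closed WT luminal regions and 6.81% of all merged regions. It was in 12.3% of the open WT basal-like regions, 12.6% of the open mixed regions and 10.7% of regions with a peak in 4 of the 6 libraries. The shorter CTCF core AGGGGGC was in 9.66% (7.38 to 12.4), against 4.63% of the closed regions and 4.69% of all. The open WT basal-like regions had it in 7.46%, within that interval. The open mixed regions had it in 7.12%, and regions with a peak in 4 of the 6 libraries in 6.11%. The E-box CAGGTG was in 16.0% of the shared regions (13.1 to 19.3) and in 42.8% of the closed WT luminal regions, against 13.6% of all merged regions. Its share was 8.82% in the open WT basal-like regions and 10.3% in the open mixed regions, both below that interval. In regions with a peak in 4 of the 6 libraries it was 15.8%. The GRHL motif was in 4.66% (3.09 to 6.7) of the shared and 13.5% of the closed regions, against 5.45% of all. WT luminal regions that lacked a peak in BM4 and BM8 were thus the ones that held E-box and GRHL matches often, and those with peaks in both held them about as often as all regions did. Regions with a peak in only BM4 or only BM8 lay between for CTCF (9.66% and 17.1%) and near the shared regions for the E-box (18.4% and 20.7%). These differences were not tested, since regions are not replicates. In each of 18 settings, the shared regions had the CTCF pattern more often and the E-box less often than the closed regions. The size of the E-box difference depended on the libraries. Without BM1 the shares were 12.3% in the shared and 18.3% in the closed regions, and without BM5 11.7% and 29.2%. The CTCF share was lowest without BM2, at 13.3%, when the closed regions had 3.79%.

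**Figure D5:**
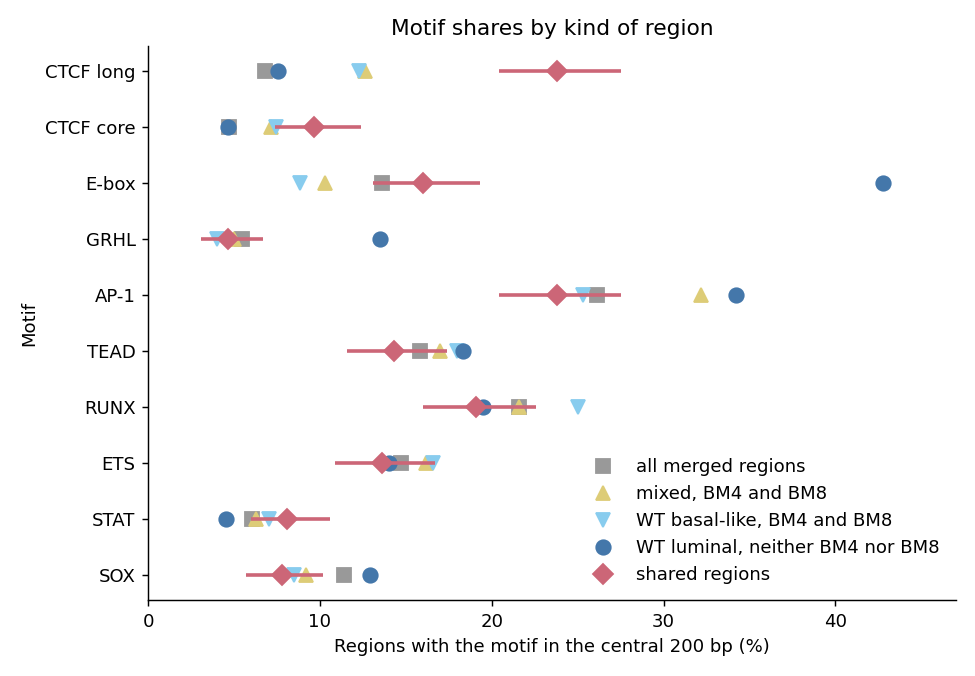
Share of regions with a motif in the central 200 bp (x axis, %) for 10 motifs (y axis) and 5 kinds of region. Lines are 95% exact binomial intervals of the shared regions, which cover the sampling of regions only; the longer CTCF pattern is in 23.8% of the shared regions, and the E-box is in 42.8% of the WT luminal regions closed in BM4 and BM8 against 16.0% of the shared regions.

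The CTCF pattern and the E-box can overlap, since CAGGTG followed by GC can lie inside CCANNAGNNGGC. In 9 of the 93 shared regions with an E-box, every E-box overlapped a CTCF match, so that 14.5% of the shared regions held an E-box elsewhere, against 42.1% of the closed regions. Some CTCF sites lie in repeats. Among the 260 shared regions with no repeat-masked base in the window, 18.8% held the CTCF pattern, against 5.29% of the closed and 5.36% of all such regions. Beyond 1 kb of every start site it was 25.6% of 480 shared regions, against 8.58% and 7.28%. Shared regions with the CTCF pattern were narrower than those without (median 142 against 186 bp), lay less often within 1 kb of a start site (10.9% against 19.2%) and had a BM7 peak more often (86.2% against 75.1%). Their percentiles were close, with medians of 28.4 and 30.8 in BM1, 40.7 and 36.1 in BM5, 42.5 and 45.1 in BM4, and 51.8 in both in BM8. The pattern was in 26.4% of the shared regions with a BM7 peak and 14.7% of those without. These shares were 11.9% and 6.5% in regions with a peak in 4 of the 6 libraries, and 14.3% and 6.16% in the open mixed regions. The order was thus not particular to the shared regions. In the closed WT luminal regions the shares were close, at 7.85% and 7.39%.

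AP-1 matches were in 23.8% of the shared regions (20.4 to 27.5), against 34.2% of the closed WT luminal regions and 26.1% of all merged regions. This order depended on the libraries, and in 3 of the 18 settings the shared regions held AP-1 more often than the closed ones. The shares were 29.3% against 16.6% without BM1, 24.8% against 22.9% without BM5, and 35.8% against 29.8% when each library was limited to 50000 peaks. Without BM2 they were 42.4% and 44.7%. Shared regions with a BM7 peak held it in 18.8% (15.3 to 22.8) and those without in 41.1% (32.5 to 50.1). The same order was seen in regions with a peak in 4 of the 6 libraries (28.9% and 48.3%) and in the open WT basal-like regions (22.8% and 36.9%), so it was not particular to the shared regions. The TEAD motif was in 14.3% (11.6 to 17.4), against 18.3% of the closed regions and 15.8% of all, RUNX in 19.1% against 21.6% of all, ETS in 13.6% against 14.7%, and FOXA in 1.9% against 3.0%. STAT was in 8.1% against 6.03% of all and SOX in 7.76% against 11.4%. No shared region held an exact estrogen response element or C/EBP match, which were in 0.0655% and 0.0824% of all merged regions. In all, 58 shared regions held none of the 19 motifs. An absent match says only that these letters are not in the window.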

How the data were processed

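For each of the 8 libraries the authors deposited 1 list of peaks with a score for each peak, called on mm10 (GRCm38). Per the labels and the methods, reads were trimmed with cutadapt, aligned with Bowtie 1.0.0 and cleared of duplicates with Picard 2.3.0, peaks were called with MACS2 (2.1.1.20160309 in the processing notes, another version in the methods), long fragments were dropped, and blacklisted peaks were removed. The score is taken to be that of MACS2 and is not normalized between libraries. A missing peak may reflect depth as well as closed chromatin.

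Peaks overlapping by at least 1 bp were merged across libraries, and a library was counted as present where one of its peaks covered 1 bp or more of the region. GENCODE M21 gave the start sites and genes, and GRCm38.p6 the sequence. In the central 200 bp, either strand was searched for motifs (18 fixed letter patterns and 1 added later). Python 3.11.15, pandas 2.3.3, scipy 1.17.1 and pysam 0.24.0 were used, and the steps were tested on simulated peaks, where 570 of 570 planted regions were recovered. Regions named are the 10 with the highest smallest percentile of the 4 libraries, the 10 such within 1 kb of a protein-coding start site, the 5 with the highest BM7 percentile, those of the 5 genes with most regions (ties by summed percentile) and those nearest to a listed gene within 100 kb. Of these, 2 regions are not reported here. The regions and lists were chosen with earlier results of these data known. No differences were tested.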

Additional observations from a re-analysis of the deposited data

How the results depend on the processing

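Over 122 alternative values of 8 results, 77 stayed within the interval of the value reported (for the number of regions, within 1.5 times) and 45 did not. Some of the 77 are repeats of the value reported. Requiring 50 bp of overlap or leaving out BM3 gave 580 regions and unchanged shares. Leaving out BM7, which is not in the rule either, gave 585 regions. Leaving out each library in turn gave 580 to 3557 shared regions, a BM7 share of 64.2% to 85.9%, a BM3 share of 1.15% to 6.63%, a share within 1 kb of a start site of 15.7% to 20.1%, and shares of 17.9% to 42.4% for AP-1, 11.7% to 18.3% for the E-box, 6.97% to 11% for the CTCF core and 13.3% to 23.8% for the longer CTCF pattern. Without BM2, which gave the highest count, the rule rests on BM6 alone for the absence of a WT basal-like peak. Keeping peaks above the median score of their own library, there were 368 regions, with 3.8% in BM3, 42.4% within 1 kb of a start site, 20.4% with AP-1, 11.7% with the E-box and 16% with the longer CTCF pattern. Limited to the 50000 top peaks per library there were 218, with 71.6% in BM7, 5.96% in BM3, 20.6% within 1 kb of a start site, 35.8% with AP-1 and 9.63% with the E-box. Both settings also dropped weak BM2 and BM6 peaks, so that regions outside the 580 could enter. A BM3 peak lay within 500 bp of 4.14%. Without regions near a BM2 or BM6 peak, 13.3% were within 1 kb of a start site; 38.1% were within 5 kb, and 10% within 1 kb of a protein-coding one. In the central 400 bp the E-box was in 25.3% and the CTCF core in 13.3%, and in windows with no repeat-masked base in 20.8% and 12.7%, with the longer CTCF pattern in 18.8%. The causes of these changes were not tested. The longer CTCF pattern, the limits to windows without repeats and to distal regions, and the motif shares and other groups' promoter shares under other choices of regions were added after seeing the data. No paired analysis was possible because the labels pair no libraries.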

Other observations

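The shared regions were spread over all 20 chromosomes in the lists. Chromosome 1 held 9.66% of them against 7.35% of all merged regions, and chromosome 11 held 8.1% against 6.46%. Chromosome 13 held 2.24% against 4.57%, and chromosome 16 held 1.9% against 3.7%. The closed WT luminal regions lay at 7.79%, 5.19%, 4.74% and 3.05% on the same chromosomes. The copy number of these chromosomes in the lines was not measured here.

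A few shared regions lay near genes of chromatin and cell state outside the lists, named after their values were seen. Kdm2b, which encodes a histone demethylase of a Polycomb complex, had one 4763 bp and one 15943 bp upstream of a start site. The nearer lay in introns of the genes A930024E05Rik and Gm44574, and the farther in an intron of Kdm2b. The nearer ranked at 29 in BM1, 19.3 in BM5, 70.5 in BM4 and 38.3 in BM8, and the farther 11.9, 28.5, 32.7 and 45.6 in the same order. Mitf, a melanocyte and lysosomal transcription factor gene, had one 13785 bp downstream, in an intron, and one 113446 bp downstream, and both held the longer CTCF pattern. Id1, an inhibitor of E-box-binding factors, had one 6328 bp downstream with a peak in both Lats1-CKO luminal libraries, at 10.1 in BM7 and 10.6 in BM3. All of these were below the middle of the WT luminal libraries.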
